A study of Mus musculus with 12 samples.

Results

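The genes of antigen presentation by major histocompatibility complex (MHC) class I and class II molecules were followed in cultures and tumors of 4T1, a mouse mammary carcinoma line used as a model of triple-negative breast cancer (TNBC). The 31 members were chosen by name, as chains of class I and class II molecules, genes of peptide supply and loading, immunoproteasome subunits and 3 transcriptional regulators. All 31 were found by symbol among the 39017 genes of the deposited count tables.

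Class I molecules are carried by nearly all nucleated cells. A heavy chain pairs with beta-2 microglobulin (B2m) and takes up a peptide that was cut by the proteasome, pumped into the endoplasmic reticulum by Tap1 and Tap2, trimmed by Erap1 and fitted with the help of Tapbp, Calr and Pdia3, and CD8+ T cells read the product. Class II molecules are mainly made by dendritic cells, macrophages and B cells. Their alpha and beta chains travel with the invariant chain Cd74, and H2-DM exchanges its last fragment for a peptide that CD4+ T cells read. Interferon gamma raises both systems, with Irf1 among the factors it induces, Nlrc5 as the coactivator of class I genes and Ciita as that of class II genes. Tumor cells are known to lower class I genes to escape T cells, and these genes are then often still inducible.

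The series compared cells labelled KO, with the genotype POGZ KO, and cells labelled VC, with the genotype POGZ WT, in 3 libraries per label and system. The POGZ protein has zinc fingers and is known to bind HP1 of heterochromatin. For the cultures, 4T1 cells grown with 10% FBS were harvested at 75% confluency. For the tumors, 50k cells with the same labels were placed in a mammary fat pad of 8-week BALB/c hosts, and the tumors were taken after 28 days and flash frozen. BALB/c is the strain of origin of 4T1, and the mice carried no labelled alteration of their own. The 6 tumors are named below by their labels, POGZ_VC or POGZ_KO with the number given there. The labels do not say whether the 3 libraries of a culture group came from separate clones or cultures, so every p-value measures the spread between these libraries. A tumor holds host cells beside the carcinoma cells, and the libraries do not separate them.

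Total counts ran from 14724518 to 21863223 in the cultures, from 4712001 to 8338828 in the VC tumors and from 12128993 to 13043831 in the KO tumors. Pogz RNA, the check of the labels, was at 50.9, 52.0 and 48.1 CPM (counts scaled to the library total) in the VC cultures and at 68.4, 67.8 and 68.6 in the KO cultures, so the KO label went with the higher level. Its log2 fold change was 0.45 ± 0.04 in the cultures (edgeR adjusted p = 3.66e-06) and 0.11 ± 0.20 in the tumors (edgeR adjusted p = 0.944). KO and VC are used below as the names of libraries labelled so. An effect of POGZ loss and any other way in which the 2 lines differ cannot be told apart. Of 9 epithelial markers, Epcam, Krt8 and Krt18 were among those plentiful in all 12 libraries. Krt5 and Cldn7 were low, with at most 90 and 38 counts in any library. The 9 markers summed to 2918 to 3219 CPM in the VC cultures and 3250 to 3316 CPM in the KO cultures. In the tumors the sum was 1835 to 2334 CPM under VC and 1695 to 1943 CPM under KO.

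Of the members, 20 lie on chromosome 17 between positions 33915899 and 37274484 of GRCm38 (mm10), the MHC region. This genome comes from C57BL/6, which carries the b haplotype of the MHC, while BALB/c and 4T1 carry the d haplotype. The chains are among the most polymorphic genes, the H2-Q and H2-T genes are close copies of each other, and BALB/c has an H2-L gene that C57BL/6 lacks. Counts of single H2 genes are therefore uncertain, and a difference between H2 genes cannot be told apart from how reads were shared out among them. Whether reads were counted by strand is not given in the sources used here. Tap1 and Psmb9 share exon bases on opposite strands, as do Erap1 and Cast, Tapbp and Gm19412, Psmb8 and Gm20496, H2-DMa and Brd2, and H2-T22 and A930015D03Rik, so their reads cannot be told apart there. The same holds for H2-Q4 and Gm11131, Tap2 and Gm15821, Ciita and Dexi, and H2-Oa and BC051537. Nlrc5, Irf1, Pdia3 and Ifi30 have shorter overlaps of this kind, and Tapbp shares bases with Zbtb22 on the same strand.

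Promoters of MHC genes are known to hold short elements on which these regulators act. A Y box, TGATTGG, is bound by NF-Y and forms the end of the module at which Nlrc5 and Ciita assemble. An interferon-stimulated response element (ISRE) was searched as GAAA, any 2 bases and GAAA again, and a gamma-activated site (GAS) as TTCNNNGAA. RefSeq gave promoters of GRCm38.p6 for 26 of the 31 members, and 250 bases before the start were searched on both strands. The Y box letters were in 13 of the 26, against 7.23% of 32851 mouse promoters of the same length. They were in 6 of 9 class I chains (B2m included), in both class II chains with a promoter and in 3 of 6 class II loading genes. The ISRE letters were in 4 of the 26 (H2-T22, H2-T23, B2m and Ctss), against 2.98% of all promoters. The GAS letters were in 3 of the 26 (H2-M3, Psmb8 and Irf1), against 7.02%. No member held both the ISRE and the GAS letters, and the match of Tap1 and Psmb9, which start in opposite directions, is the same bases.

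The 8 stretches below are the 150 bases before the start of genes on which the results turn, 5' to 3' along the gene, from the C57BL/6 reference. Capitals mark the Y box, read on either strand (TGATTGG or CCAATCA), and in H2-T23 and B2m the ISRE. The class II genes H2-Aa (chr17:34287824-34287973, minus strand), H2-Eb1 (chr17:34305717-34305866, plus strand) and H2-DMb1 (chr17:34153041-34153190, plus strand) show the box at 50, 61 and 63 bases before the start. The class I chains H2-D1 (chr17:35262944-35263093, plus strand), H2-Q6 (chr17:35424700-35424849, plus strand) and H2-T23 (chr17:36032702-36032851, minus strand) show its complement at 53, 55 and 52 bases. B2m (chr2:122147537-122147686, plus strand) shows the ISRE letters alone, and H2-K1 (chr17:34000348-34000497, minus strand) is shown as a classical chain without an exact match in this window. A match is a description of letters and not a measured site. Elements with other letters were not searched, so a stretch without a match may still hold one.
H2-Aa: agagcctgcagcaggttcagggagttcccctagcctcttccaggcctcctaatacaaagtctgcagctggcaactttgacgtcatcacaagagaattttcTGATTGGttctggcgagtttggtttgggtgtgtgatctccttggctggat
H2-Eb1: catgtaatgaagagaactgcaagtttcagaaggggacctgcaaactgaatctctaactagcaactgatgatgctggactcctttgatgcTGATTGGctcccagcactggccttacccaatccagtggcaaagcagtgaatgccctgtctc
H2-DMb1: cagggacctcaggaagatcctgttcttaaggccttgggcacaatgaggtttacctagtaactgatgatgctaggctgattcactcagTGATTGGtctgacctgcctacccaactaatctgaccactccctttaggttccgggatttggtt
H2-D1: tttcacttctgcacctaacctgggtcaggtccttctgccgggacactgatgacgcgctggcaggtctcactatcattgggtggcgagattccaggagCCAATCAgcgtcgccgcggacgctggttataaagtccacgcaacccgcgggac
H2-Q6: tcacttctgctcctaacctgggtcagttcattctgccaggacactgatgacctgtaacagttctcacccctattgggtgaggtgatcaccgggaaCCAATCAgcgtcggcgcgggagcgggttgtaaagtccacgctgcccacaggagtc
H2-T23: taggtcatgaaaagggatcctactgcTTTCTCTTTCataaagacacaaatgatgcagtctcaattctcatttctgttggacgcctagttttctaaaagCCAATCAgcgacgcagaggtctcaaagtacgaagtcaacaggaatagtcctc
B2m: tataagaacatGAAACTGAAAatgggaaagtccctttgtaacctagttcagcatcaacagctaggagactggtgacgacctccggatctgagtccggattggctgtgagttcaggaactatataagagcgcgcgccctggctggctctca
H2-K1: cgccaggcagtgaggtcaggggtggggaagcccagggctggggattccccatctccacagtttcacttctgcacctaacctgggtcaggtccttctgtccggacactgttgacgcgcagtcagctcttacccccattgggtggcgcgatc

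The cultured cells carried RNA of all class I genes and, H2-DMa and Ifi30 apart, little or no class II RNA. Per length, as CPM per kilobase of exon (RPKM), the class I genes of the VC cultures were led by B2m at 292, H2-D1 at 97.5 and H2-K1 at 48.1, with the chaperone Calr at 283 and the oxidoreductase Pdia3 at 165. The peptide pump and the immunoproteasome were low on the same scale, with Tap1 at 1.53, Psmb8 at 4.96 and Psmb9 at 0.713. Of the class II genes, only H2-DMa at 1.35 and Ifi30 at 52.4 were above 1 RPKM. Ifi30 is the lysosomal thiol reductase GILT, which is not limited to class II-bearing cells.

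In the VC tumors B2m again led, at 1622 RPKM, and the invariant chain Cd74 was next at 644, ahead of H2-D1 at 492. The protease Ctss, which cuts the invariant chain, was at 405 RPKM and the class II chains H2-Eb1, H2-Aa and H2-Ab1 at 179, 141 and 127. The paired chains H2-Oa and H2-Ob, which form the B cell inhibitor of H2-DM, stayed the lowest at 0.195 and 0.227 RPKM.

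**Figure D1:**
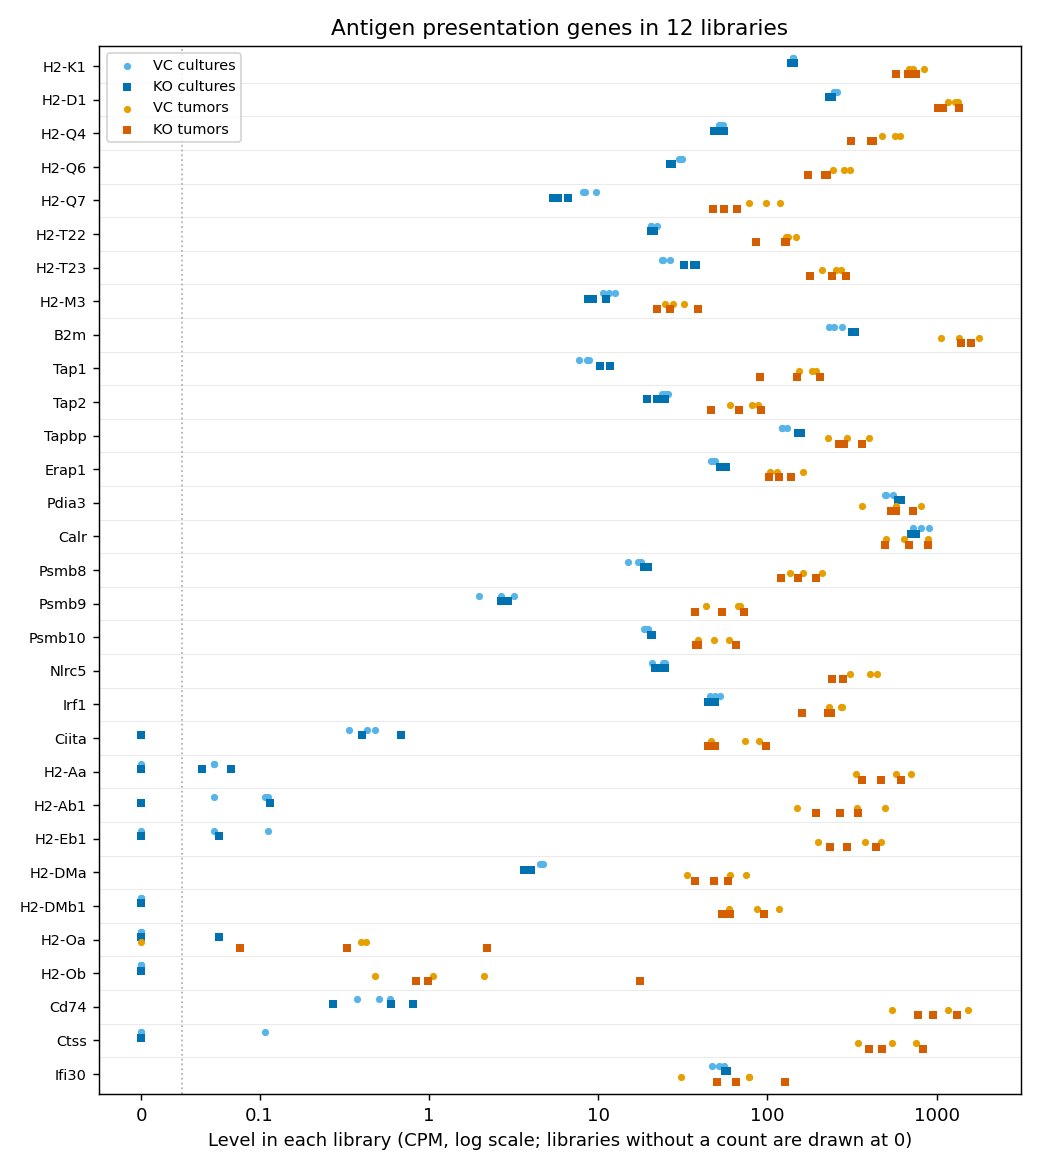
Level of each of the 31 members in each of the 12 libraries, in CPM on a log axis, with libraries that had no count drawn at 0 left of the dotted line. Circles are VC and squares KO libraries, blue for cultures and orange for tumors; class I genes (top) are present in cultures and higher in tumors, while most class II genes (bottom) are near 0 in the cultures and plentiful in the tumors.

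Between culture and tumor, nearly every member was higher in the tumors. Of the 30 members tested, 26 were higher in VC tumors than in VC cultures and 27 were higher in KO tumors than in KO cultures, and none was lower. Ciita, H2-Aa, H2-Ab1, H2-Eb1, H2-DMb1, H2-Ob and Ctss passed the filter on low counts only through the tumors. Those genes could thus be called higher or not called, but hardly lower. The 18 class I genes also passed the filter in the cultures alone, and 16 of them were higher under each label. Of all 18419 genes tested, 36.1% were higher and 29.1% lower under VC, and 35.4% were higher and 28.9% lower under KO (edgeR, adjusted p under 0.05). The general folding enzymes Pdia3 and Calr and the reductase Ifi30 were not called under either label, H2-Ob was not called under VC, and H2-Oa had too few counts to be tested. The median log2 fold change over the 18 class I genes was 2.41 under VC and 2.22 under KO, against 0.10 and 0.09 over all genes.

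All 9 class I chains were called higher in tumors under both labels. H2-K1 (chr17:33996017-34000347, minus strand), a classical heavy chain, was at 141, 142 and 141 CPM in the VC cultures and at 841, 691 and 725 CPM in the VC tumors. The 3 KO cultures had 138, 144 and 144 CPM and the 3 KO tumors 579, 677 and 751 CPM. Every tumor lay above every culture, and the log2 fold change was 2.38 ± 0.11 under VC and 2.20 ± 0.11 under KO (edgeR adjusted p = 2.37e-08 and 3.47e-08). The other classical chain, H2-D1 (chr17:35262730-35267499, plus strand), went from 251 ± 4.57 to 1268 ± 89.6 CPM under VC and from 237 ± 4.81 to 1154 ± 184 CPM under KO (SD, n = 3 each). B2m (chr2:122147686-122153083, plus strand), the light chain of all of them, was 2.44 ± 0.16 higher on the log2 scale under VC and 2.14 ± 0.16 higher under KO.

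The nonclassical chains rose by 1.25 to 3.47 on the log2 scale under VC. H2-Q4 stood 3.34 ± 0.14 above culture under VC and 2.84 ± 0.14 under KO, and H2-Q7 3.47 ± 0.18 and 3.21 ± 0.18. H2-T23, which encodes Qa-1, the ligand of the NK cell receptor NKG2A, stood 3.27 ± 0.17 above culture under VC and 2.70 ± 0.17 under KO. H2-M3, which presents formylated peptides, had the smallest rise of the 9 chains under VC, at 1.25 ± 0.20, and under KO it was 1.56 ± 0.20.

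Of the 6 loading genes, 4 rose under both labels. Tap1 (chr17:34187553-34197225, plus strand) was at 8.64, 7.67 and 8.81 CPM in the VC cultures and 183, 153 and 193 CPM in the VC tumors, a log2 fold change of 4.36 ± 0.26, and the KO libraries gave 3.69 ± 0.25. Its partner Tap2, the other subunit of the pump, rose by 1.59 ± 0.21 and 1.59 ± 0.21. Tapbp (tapasin), the bridge between pump and chain, rose by 1.26 ± 0.17 and 0.93 ± 0.17, and the trimming peptidase Erap1 by 1.37 ± 0.15 and 1.07 ± 0.15. Pdia3 and Calr, which serve the folding of many glycoproteins, had log2 fold changes of 0.13 ± 0.22 and -0.31 ± 0.21 under VC.

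The immunoproteasome subunits rose while the subunits they replace fell, as did some other proteasome subunits. Psmb8 (chr17:34197721-34201454, plus strand) rose by 3.30 ± 0.19 on the log2 scale under VC and 2.97 ± 0.19 under KO, Psmb9 by 4.48 ± 0.29 and 4.24 ± 0.28, and Psmb10 by 1.32 ± 0.20 and 1.16 ± 0.20. Their constitutive counterparts Psmb5, Psmb6 and Psmb7 were called lower, with log2 fold changes of -1.16, -0.64 and -0.84 under VC and -1.18, -0.65 and -1.04 under KO. The fall was not particular to them: Psma1, Psmb1, Psmb2 and Psmb3 were also lower in CPM in every tumor than in every culture. Psmb4 was lower in the tumors of each label, narrowly under VC, and overlapped only across labels. Psma3 overlapped between tumors and cultures under VC and was lower in the tumors under KO. Psma5 was higher in the tumors of each label and overlapped across labels. Within a library, the ratio of Psmb8 to Psmb5 in counts per exon base was 0.147 ± 0.0206 in the VC cultures and 3.19 ± 0.148 in the VC tumors (SD, n = 3 each). The same ratio was 0.167 ± 0.00630 in the KO cultures and 2.94 ± 0.593 in the KO tumors. Psmb9 over Psmb6 went from 0.0220 ± 0.00540 to 0.762 ± 0.115 under VC, and Psmb10 over Psmb7 from 0.310 ± 0.0138 to 1.39 ± 0.0569. In all 3 pairs every tumor lay above every culture.

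**Figure D2:**
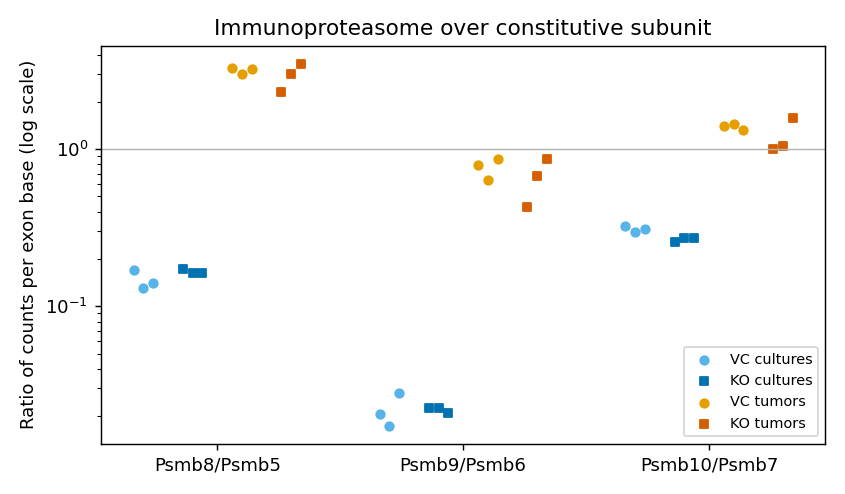
Ratio of each immunoproteasome subunit to the constitutive subunit it replaces, in counts per exon base, on a log axis, with 1 point per library. The line marks a ratio of 1: Psmb8 over Psmb5 is below 0.2 in all 6 cultures and above 2 in all 6 tumors.

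The regulators rose as well. Nlrc5 was at 20.8, 24.2 and 25.0 CPM in the VC cultures and 307, 402 and 447 CPM in the VC tumors, with a log2 fold change of 4.01 ± 0.16 under VC and 3.48 ± 0.15 under KO. Irf1, the transcription factor that acts on ISRE letters, rose by 2.37 ± 0.14 and 2.11 ± 0.14. Ciita had at most 15 counts in any culture and 89.1, 46.8 and 73.7 CPM in the VC tumors, and it was called higher under both labels (edgeR adjusted p = 6.18e-07 and 6.28e-07).

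**Figure D3:**
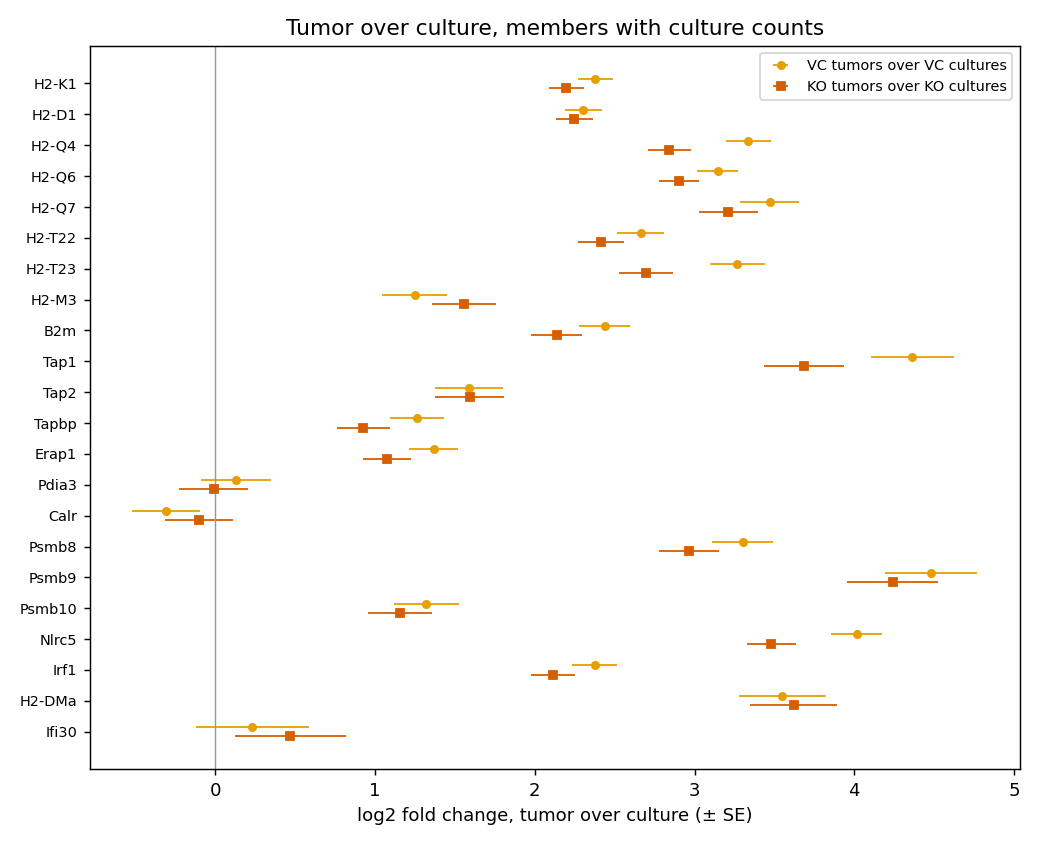
Log2 fold change of tumors over cultures with its SE from the fit of all 12 libraries, for the 22 members with enough counts in culture for the change to be read as a size. Circles are VC and squares KO; all lie to the right of 0 except Calr under both labels and Pdia3 under KO, with Tap1, Psmb9 and Nlrc5 farthest right under VC.

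RNA of the class II chains was nearly absent from the cultures. Over the 3 VC cultures together H2-Aa had 2 counts, H2-Ab1 5, H2-Eb1 3 and Ctss 2, and H2-DMb1, H2-Oa and H2-Ob had 0. The 3 KO cultures together had 2 counts of H2-Aa, 2 of H2-Ab1, 1 of H2-Eb1, 1 of H2-Oa and 0 of H2-DMb1, H2-Ob and Ctss. A count of 0 over a group allows up to 3 counts, or 0.0547 CPM in the VC and 0.0557 CPM in the KO cultures. These limits and the intervals that follow cover counting error only.

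In the tumors H2-Aa (chr17:34282744-34287823, minus strand), the alpha chain of I-A, was at 705, 333 and 572 CPM under VC and 471, 362 and 616 CPM under KO. Its ratio of VC tumors to VC cultures was 13870, with a 95% counting interval of 3839 to 114600. H2-Ab1, its beta chain, had a ratio of 3259 (1396 to 10040), and H2-Eb1, the beta chain of I-E, one of 5959 (2038 to 28910). H2-DMb1, a chain of the peptide exchange factor, was at least 1509-fold higher in VC tumors and at least 1254-fold higher in KO tumors, against the floor of 3 counts over the group. Ctss was at least 10150-fold higher in KO tumors on the same floor. Cd74 was at 0.508, 0.590 and 0.378 CPM in the VC cultures and at 1524, 545 and 1173 CPM in the VC tumors. H2-DMa, the partner of H2-DMb1, was counted in every culture, at 4.69, 4.56 and 4.75 CPM under VC, and rose by 3.55 ± 0.27 on the log2 scale under VC and 3.62 ± 0.27 under KO.

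Most tested markers of macrophages and dendritic cells were also called higher in the tumors, and those of B cells in the KO pair. Of 12 macrophage and monocyte markers tested 11 were higher under VC and 12 under KO, of 7 dendritic cell markers 7 and 7, and of 5 B cell markers 1 and 5 (edgeR, adjusted p under 0.05). The cultures alone had enough counts to test only 4, 1 and 2 markers of these lists, and a marker near 0 in culture could hardly be called lower. The 12 macrophage and monocyte markers summed to 48.2 to 50.9 CPM in the VC cultures and 37.5 to 41.2 in the KO cultures, with Adgre1 at 0 in all 6, and to 715 to 1355 and 970.0 to 2101 CPM in the VC and KO tumors. The 9 dendritic cell markers summed to 4.85 to 5.58 CPM in VC cultures, 4.82 to 5.31 in KO cultures, 50.1 to 90.3 in VC tumors and 88.9 to 198 in KO tumors, with Cd209a at 0 in all cultures. The 9 B cell markers summed to 2.15 to 3.19, 1.68 to 2.38, 10.2 to 23.8 and 18.9 to 452 CPM in the same order of groups, with Ms4a1 and Ighm at 0 in all cultures. Some of these markers were counted in every culture, among them Csf1r at 189 to 498, Cd68 at 358 to 511 and Zbtb46 at 68 to 112 counts. The B cell markers Cr2 and Fcer2a had 10 to 29 and 12 to 33 counts in the cultures. The part of macrophages, dendritic cells and B cells in the tumor levels was not tested. More cells of a type and more RNA per cell cannot be told apart in tumor libraries.

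Related genes were counted from 4 lists. Of 33 other class I pathway genes tested, 19 were higher and 11 lower in VC tumors than in VC cultures, and 17 and 11 in the KO pair. The further class I chains H2-Q5, H2-Q10 and H2-T10 rose by 3.37 ± 0.19, 2.26 ± 0.13 and 2.73 ± 0.15 under VC, and the cytosolic peptidase Thop1, which destroys peptides, fell under both labels, at -1.58 ± 0.13 under VC and -1.86 ± 0.12 under KO. Of 19 other class II genes tested, 10 were higher and 3 lower under VC, and 10 and 2 under KO. The ubiquitin ligase March1, which removes class II molecules from the surface, rose by 5.42 ± 0.36 under VC, and the protease Ctsl was lower under VC, at -0.92 ± 0.15, and not called under KO, at 0.15 ± 0.15. Of 13 interferon gamma signaling genes, 11 were higher under VC and 12 under KO. Of 20 interferon gamma targets, 19 were higher and 1 lower under each label, with the GTPase gene Tgtp1 at 6.01 ± 0.22 and 3.95 ± 0.19.

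Between the labels in culture, 4 of the 6 genes of peptide loading and B2m were higher in KO, 2 H2-Q genes were lower, and the classical chains H2-K1 and H2-D1 were not called. Of the 23 members tested, 8 were higher and 2 lower (edgeR, adjusted p under 0.05), while 23% of all 15705 genes tested were higher and 24.9% lower. The median log2 fold change was 0.01 over the members tested and -0.01 over all genes. The 8 members not tested for their low counts were Ciita, Ctss, H2-Aa, H2-Ab1, H2-Eb1, H2-DMb1, H2-Oa and H2-Ob. Every called change was under 0.6 on the log2 scale.

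The 9 class I chains split in direction. H2-T23 (chr17:36029773-36032855, minus strand) was at 24.2, 23.9 and 26.6 CPM in the VC cultures and 38.0, 36.8 and 32.3 CPM in the KO cultures, without overlap, a log2 fold change of 0.52 ± 0.07 (edgeR adjusted p = 9.46e-05). H2-T23 is 1 of the 2 chains with both Y box and ISRE letters, and the other, H2-T22, had -0.01 ± 0.07 and was not called. B2m was at 276, 247 and 231 CPM under VC and 330.1, 318 and 317 CPM under KO, again without overlap, and rose by 0.36 ± 0.06 (edgeR adjusted p = 0.000185).

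H2-Q7 (chr17:35439155-35443773, plus strand), a chain of the Qa-2 group, fell, from 9.71, 8.15 and 8.32 CPM under VC to 5.39, 6.66 and 5.81 CPM under KO, with a log2 fold change of -0.55 ± 0.12 (edgeR adjusted p = 0.00198). Its neighbor and close copy H2-Q6 (chr17:35424850-35430055, plus strand) also fell, from 30.9, 30.0 and 31.3 to 26.6, 27.2 and 26.9 CPM, by a smaller amount (-0.18 ± 0.06, edgeR adjusted p = 0.015). In both genes the 3 KO cultures lay below the 3 VC cultures. The share of all genes without overlap between the labels in culture was not counted. The other 5 chains were not called, with H2-K1 at 0.01 ± 0.04, H2-D1 at -0.08 ± 0.04, H2-Q4 at -0.04 ± 0.05 and H2-M3 at -0.26 ± 0.11.

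Under the KO label 4 of the 6 loading genes were called higher and none lower. Tap1 was at 8.64, 7.67 and 8.81 CPM under VC and 10.3, 11.7 and 11.8 CPM under KO and rose by 0.44 ± 0.10 (edgeR adjusted p = 0.00278). Tap2, its partner, was not called and had -0.16 ± 0.08. Tapbp (chr17:33915899-33929292, plus strand) was at 130.2, 123 and 123 CPM under VC and 155, 159 and 152 CPM under KO and rose by 0.32 ± 0.04 (edgeR adjusted p = 3.7e-05), the smallest adjusted p among the members. Erap1 rose by 0.21 ± 0.05 and Pdia3 by 0.23 ± 0.05, while Calr was at -0.16 ± 0.06 and not called (edgeR adjusted p = 0.056).

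Of the immunoproteasome subunits, Psmb8 rose by 0.22 ± 0.08 (edgeR adjusted p = 0.04), and Psmb9 at 0.12 ± 0.19 and Psmb10 at 0.13 ± 0.06 were not called. The regulators Nlrc5 and Irf1 were at -0.00 ± 0.08 and -0.06 ± 0.06 and not called. On the class II side Ifi30 rose by 0.15 ± 0.06 (edgeR adjusted p = 0.0386), and H2-DMa at -0.28 ± 0.13 and Cd74 at 0.23 ± 0.40 were not called.

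B2m and Pdia3 lie on chromosome 2, whose median gene was 0.25 higher in KO cultures, and with each chromosome's median taken out B2m was at 0.12 (edgeR adjusted p = 0.115) and Pdia3 at -0.01 (edgeR adjusted p = 0.836). In the same fit H2-Q6 was not called either, at -0.11 (edgeR adjusted p = 0.127), and Psmb10 was called, at 0.22 (edgeR adjusted p = 0.014). H2-Q6, Psmb8 and Ifi30 were not called by DESeq2 (adjusted p = 0.125, 0.114 and 0.0734), which called Calr lower (adjusted p = 0.046). None of the 10 was called in the fit of all 12 libraries, whose spread is shared with the tumors.

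Interferon gamma targets differed throughout in the same cultures. All 16 tested were called, 13 higher and 3 lower, with a median log2 fold change of 1.09 against -0.01 over all genes. Gbp2, Gbp3 and Gbp4, guanylate-binding proteins of cell-autonomous defense, rose by 1.22 ± 0.08, 1.24 ± 0.09 and 1.12 ± 0.07, while the serpin Serpina3g fell, at -3.29 ± 0.25. Of 12 signaling genes, 5 were higher and 3 lower: Irf9 rose by 0.74 ± 0.07 and the receptor chain Ifngr2 by 0.70 ± 0.06, and Irf8 was lower at -2.44 ± 0.14. Of 31 other class I genes tested, 7 were higher and 6 lower, and of 15 other class II genes 3 and 3, shares no larger than the 23% higher and 24.9% lower of all genes. Mr1, which presents vitamin B metabolites, rose from 5.36, 4.45 and 3.57 to 10.8, 13.0 and 11.5 CPM (edgeR adjusted p = 3.77e-06). Among the class II genes the protease Lgmn was at 0.45 ± 0.05 and Rfx5, a subunit of the factor that holds Ciita on class II promoters, at 0.25 ± 0.05.

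**Figure D4:**
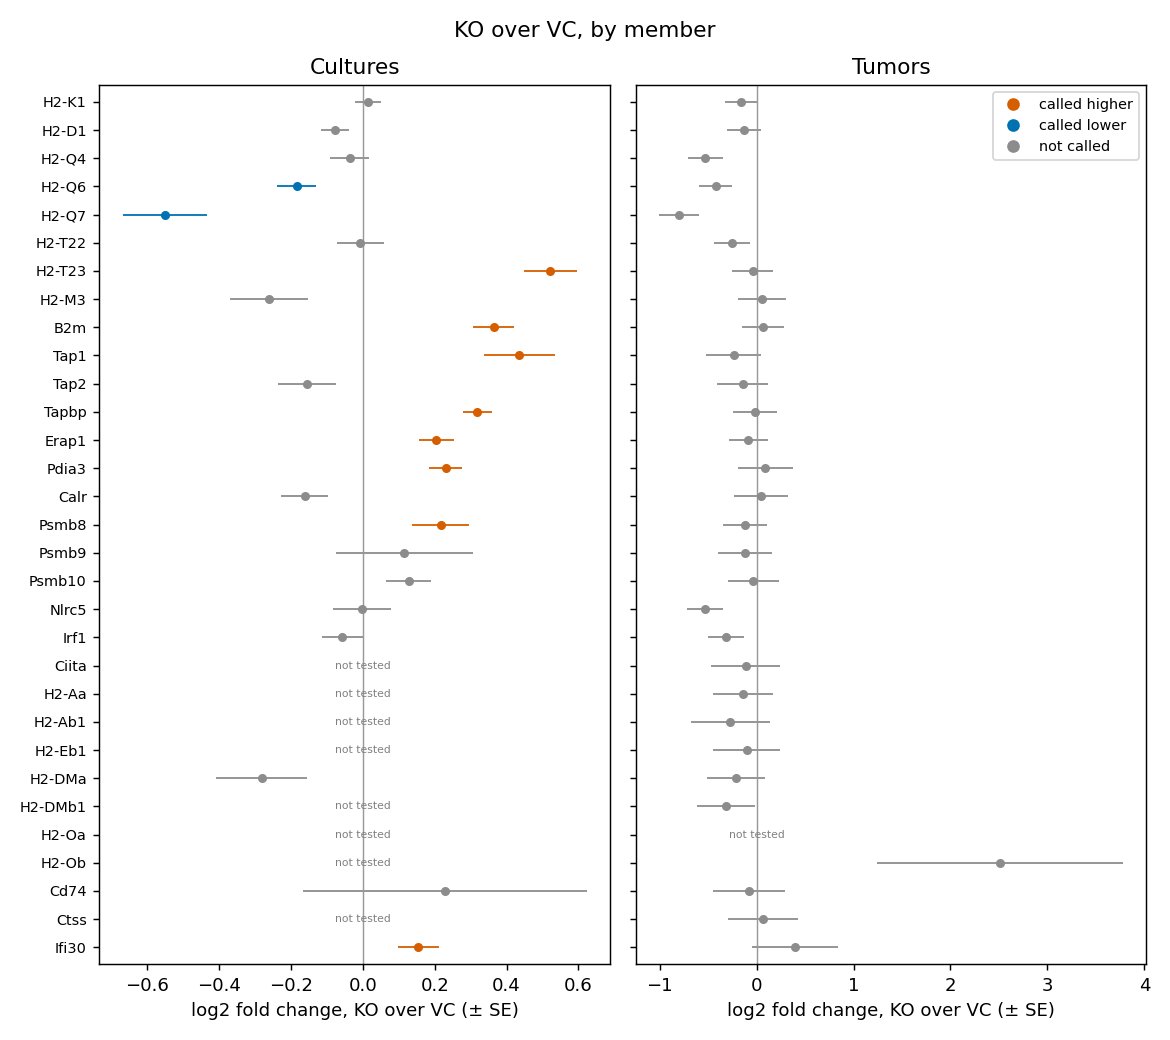
Log2 fold change of KO over VC with its SE for each member, in cultures (left) and tumors (right), on x axes of different range. Orange is called higher, blue called lower and gray not called: 8 and 2 members are called in the cultures and none in the tumors, where 23 of the 30 points lie left of 0.

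Between the labels in tumors, no member was called. All 30 members tested had an adjusted p of at least 0.835 (edgeR), 4 had an unadjusted p under 0.05, and DESeq2 also called 0, with a smallest adjusted p of 0.178. Of all 17153 genes tested, 0% were called higher and 0% lower by edgeR, 956 had an unadjusted p under 0.05, and DESeq2 called 68. The members' median log2 fold change was -0.12, with 23 of 30 below 0, against 0.02 over all genes. That median rests on single tumors: it was 0.01 without POGZ_KO_8454 (14 of 30 below 0) and 0.02 without POGZ_VC_8447 (12 of 30), but -0.07 without POGZ_KO_8455, -0.28 without POGZ_VC_8448 and -0.36 without POGZ_KO_8459.

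The 4 members with an unadjusted p under 0.05 were 3 H2-Q genes and Nlrc5, all lower in KO. H2-Q7 was at 78.1, 98.7 and 119 CPM in the VC tumors and 47.9, 66.6 and 55.2 CPM in the KO tumors, a log2 fold change of -0.80 ± 0.20 (edgeR adjusted p = 0.835). H2-Q4 was at 479, 607 and 565 CPM under VC and 311, 421 and 411 CPM under KO (-0.53 ± 0.18). In each of these 4 genes the 3 KO tumors lay below the 3 VC tumors. They were picked by their p, and the share of all genes that separate so was not counted. H2-Q6 had -0.42 ± 0.17, and Nlrc5 was at 307, 402 and 447 CPM under VC and 240.2, 281 and 280.2 CPM under KO (-0.53 ± 0.19). H2-Q6 and H2-Q7 were thus lower in KO in both systems, past the test in culture alone.

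The other class I genes ran from -0.25 (H2-T22) to 0.09 (Pdia3) on the log2 scale, with SEs wider than in culture. H2-K1 was at -0.16 ± 0.17, H2-D1 at -0.13 ± 0.18, B2m at 0.07 ± 0.21, H2-T23 at -0.04 ± 0.21, Tap1 at -0.24 ± 0.28, Tapbp at -0.01 ± 0.23 and Psmb8 at -0.12 ± 0.23. The class II chains H2-Aa, H2-Ab1 and H2-Eb1 were at -0.14 ± 0.31, -0.27 ± 0.41 and -0.10 ± 0.34, Cd74 at -0.08 ± 0.37 and Ciita at -0.11 ± 0.36. In these genes the VC and KO tumors overlapped. On simulated counts with the spread of these tumors, the test recovered 18% of genes changed 2-fold and 80% of genes changed 4-fold, against 99% and 100% in the cultures, so changes as small as those called in culture were below what this comparison detects reliably.

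None of the related genes was called in the tumors by edgeR either, and an unadjusted p under 0.05 was reached by 2 of 20 interferon gamma targets, 1 of 13 signaling genes, 0 of 33 other class I genes and 1 of 18 other class II genes. The interferon gamma targets had a median log2 fold change of -0.27, with 5 of 20 above 0, and the abundant targets Gbp4 and Iigp1 were at -0.66 ± 0.43 and -0.49 ± 0.27. The other class I and class II genes had medians of -0.03 and 0.15.

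The difference between the KO effect in tumors and that in culture was called for no member. Of the 30 tested, 3 had an unadjusted p under 0.05 (H2-Q4, H2-T23 and Nlrc5), the smallest adjusted p was 0.202 (edgeR), and DESeq2 called 0. Of all 18419 genes, 1.12% were called higher and 0.95% lower, 381 in all, a count that ran from 147 without KO culture 3 to 1588 without POGZ_KO_8454, with 0 members in each case. H2-T23 differed by -0.57 ± 0.23, Nlrc5 by -0.53 ± 0.20, H2-Q4 by -0.50 ± 0.18 and Tap1 by -0.68 ± 0.33 on the log2 scale. Of the 20 interferon gamma targets, 7 were called, all lower in the tumor effect than in the culture effect, among them Tgtp1 at -2.06 ± 0.26 and Iigp1 at -4.10 ± 0.53. Iigp1 had only 1, 5 and 7 counts in the VC cultures, so the size of its difference is uncertain. Irf9 was lower at -0.91 ± 0.15, Irf8 higher at 2.38 ± 0.43, Mr1 lower at -1.37 ± 0.29 and Ctsl higher at 1.07 ± 0.21.

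Within the tumors, class I and class II genes had their lowest levels in different libraries. Of the 18 class I genes, 15 were lowest in POGZ_KO_8454 and the other 3 in POGZ_VC_8448. Of the 10 class II genes, 9 were lowest in POGZ_VC_8448 and 1 in POGZ_KO_8454. The highest levels were in POGZ_VC_8447 for 13 of the 31 members and in POGZ_KO_8459 for 13.

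In POGZ_KO_8454 H2-K1 was at 579 CPM and Tap1 at 91.0 CPM, while the other 5 tumors had 677 to 841 and 150 to 206 CPM. The 20 interferon gamma targets summed to 1865 CPM in that tumor and to 3227 to 4201 CPM in the other 5. The part of this library in the lower class I values of KO was not tested beyond leaving it out, which called 0 members. Without it Tap1 was at 0.015, H2-T22 at -0.09 and H2-K1 at -0.08 on the log2 scale, while H2-Q4 was at -0.41 (edgeR adjusted p = 0.386), and 6 of the 18 class I genes were below 0, against 14 with it.

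The summed class II chains H2-Aa, H2-Ab1 and H2-Eb1 were 1666, 682 and 1287 CPM in tumors POGZ_VC_8447, POGZ_VC_8448 and POGZ_VC_8451 and 1032, 789 and 1398 CPM in tumors POGZ_KO_8454, POGZ_KO_8455 and POGZ_KO_8459. The complement genes C1qa, C1qb and C1qc, made by macrophages, summed to 564, 183 and 374 CPM and to 385, 259 and 513 CPM in the same order. Both sums were lowest in POGZ_VC_8448 and highest in POGZ_VC_8447, and POGZ_KO_8459 was second in both. The sum of the 12 macrophage and monocyte markers, C1q included, was also lowest in POGZ_VC_8448, at 715 CPM, though single markers such as Mrc1 were not. Their sum was highest in POGZ_KO_8459, at 2101 CPM, against 1355 CPM in POGZ_VC_8447. The sum of the 9 dendritic cell markers was likewise lowest in POGZ_VC_8448, at 50.1 CPM, and highest in POGZ_KO_8459, at 198 CPM. Single dendritic cell markers such as Clec10a were not lowest there. The part of macrophages in the class II level was not tested.

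H2-Ob stood apart in 1 tumor. It was at 2.12, 0.480 and 1.06 CPM in the VC tumors and 0.989, 0.843 and 17.6 CPM in the KO tumors, and the log2 fold change of 2.51 ± 1.27 rests on POGZ_KO_8459, since the other KO tumors lie within the VC range. Its partner H2-Oa was highest in the same tumor, at 0.330, 0.0767 and 2.22 CPM over the 3 KO tumors. H2-Ob and H2-Oa are known from B cells. The 9 B cell markers summed to 23.8, 10.6 and 10.2 CPM in the VC tumors and 18.9, 72.8 and 452 CPM in the KO tumors, with Ms4a1 (CD20) at 0.330, 1.84 and 33.7 CPM in the latter. In the same tumor the 14 T and NK cell markers summed to 199.6 CPM, against 77.3 to 112 CPM in the other 5. The part of B cells in these 2 genes was not tested, and H2-Ob had too few counts to be tested without that tumor.

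**Figure D5:**
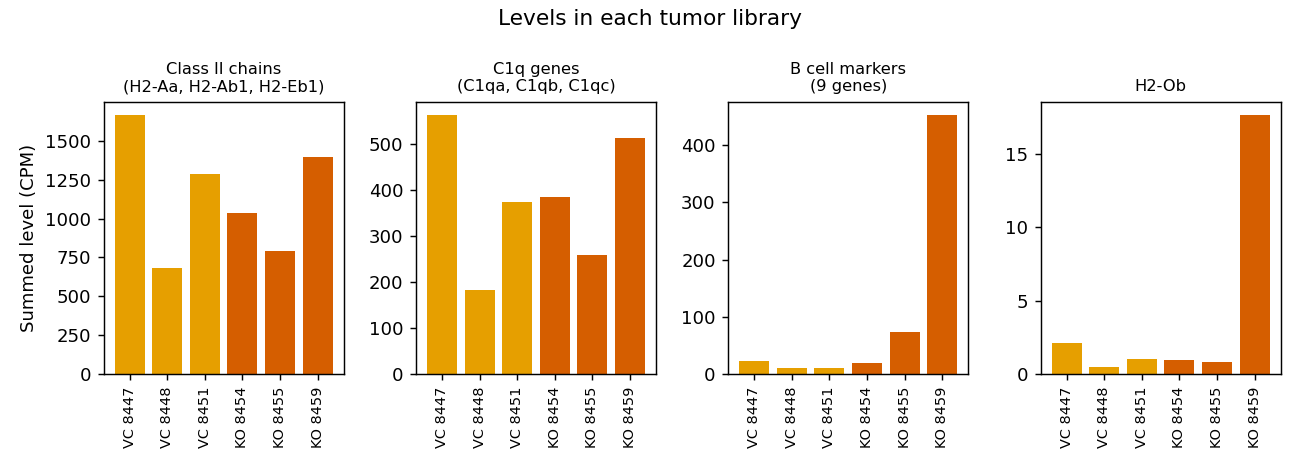
Level in each of the 6 tumor libraries of the 3 summed class II chains, the 3 summed C1q genes, the 9 summed B cell markers and H2-Ob, in CPM on axes that start at 0 and differ in range. Light bars are VC and dark bars KO; POGZ_VC_8448 is lowest for the class II chains and C1q, and POGZ_KO_8459 stands apart for B cell markers (452 CPM) and H2-Ob (17.6 CPM).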

How the data were processed

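RNA of 6 cultures and 6 tumors was sequenced from ribosomal-depleted libraries (labels' protocols). The authors deposited raw counts per gene on mm10, and per the submitters' processing notes featureCounts 1.4.4, STAR 2.3.0e and Trimmomatic 0.32 were used. Settings and annotation are not given in the sources used here, nor how reads that fit several H2 genes were treated.

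Counts were fitted in R 4.3.3 with edgeR 4.0.16 (filterByExpr, TMM, quasi-likelihood test, Benjamini-Hochberg adjustment over all genes tested, threshold 0.05). Cultures and tumors had a fit each. The difference of KO effects and the tumor over culture contrasts came from 1 fit of all 12 libraries. The SE of a log2 fold change is its size divided by the root of the F statistic. CPM were computed on total counts and RPKM on exon lengths of GENCODE M21, which held 37693 of the 39017 gene IDs. Motifs were searched in RefSeq promoters of GRCm38.p6. The test was checked on simulated counts with 200 genes changed per comparison. It made 21 false calls over 15705 genes in the culture comparison and 13 over 17153 genes in the tumor comparison.

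The members and lists were chosen with earlier results of these data known. Named were all 31 members, Pogz, the listed cell type markers and, of each related list, the called genes of the 4 smallest p in a comparison or else the 2 of the highest mean. Psmb5, Psmb6 and Psmb7, as the subunits replaced, and the other proteasome subunits named beside them were added after values were seen. Of 167 listed symbols besides the members, 162 matched a gene. Alternatives were RLE and upper-quartile scaling, other filters, DESeq2 1.42.0, limma-voom (limma 3.58.1), each library left out, a replicate block, 1 fit of all libraries, only the libraries of 1 label, thinned tumors, and chromosome medians taken out over genes above a mean log2 CPM of 3. Figures were drawn in Python 3.11.15.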

Additional observations from a re-analysis of the deposited data

How the results depend on the processing

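No member was called in the culture comparison in the fit of all 12 libraries (0 against 10), whose spread includes that of the tumors. Leaving out 1 library gave 7 to 10 calls there, 26 to 27 for tumor over culture under VC, 27 under KO, and 0 for both other comparisons. Pdia3 changed sign in culture with chromosome medians taken out (-0.0148). Ifi30 lost its call without any 1 culture other than VC 1 (edgeR adjusted p = 0.0545 to 0.11), H2-Q6 without VC 3 or any 1 KO culture (0.0524 to 0.066), and Psmb8 without VC 2, KO 2 or KO 3 (0.165, 0.0848 and 0.094). Calr gained one without VC 3 (0.00223), H2-M3 without KO 1 (0.0211) and Tap2 without KO 2 (0.043). The other 7 called members kept their call in all 6 of these fits. Across all alternatives, members that were not called had another sign in 19 of 194 values in culture and 39 of 417 in tumors. With the culture numbers as a replicate block 10 members were called, 7 higher and 3 lower, H2-M3 gained its call (-0.26, edgeR adjusted p = 0.0444) and Psmb8 lost its own (edgeR adjusted p = 0.0507). Deviations of same-numbered cultures correlated at -0.159, 0.033 and 0.0706, so the numbers do not pair them. Tumors carry no shared numbers, so no block was fitted there. The VC tumors had the lowest depth, and thinning all tumors to 4712001 counts called 0 members.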

Other observations

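H2-Ea encodes the alpha chain of I-E. It is inactive in C57BL/6, so the annotation lists it as a pseudogene, and it is expressed in BALB/c. Its counts were 580.2, 254 and 419 CPM in the VC tumors and 344, 256 and 436 CPM in the KO tumors, and 1 culture had any count. The 6 tumors stood in the same order as for H2-Eb1, the beta chain, with POGZ_VC_8447 highest and POGZ_VC_8448 lowest.

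Other marker lists differed between tumors in their own ways. The 7 fibroblast markers summed to 3842, 2391 and 3032 CPM in the VC tumors and 3535, 6622 and 4727 CPM in the KO tumors, the 10 neutrophil markers to 162, 441 and 389 and 135, 543 and 176 CPM, and the 6 endothelial markers to 269.9, 151 and 161 and 242, 297 and 276 CPM. In all 3 lists the VC and KO tumors overlapped.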
